A study of Mus musculus with 11 samples.

Results

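Polycomb repressive complexes are enzyme assemblies that keep developmental genes silent by modifying histones. PRC2 methylates a lysine of histone H3, through the catalytic subunit Ezh2 held by Eed and Suz12, with the histone chaperones Rbbp4 and Rbbp7 as further partners and with Jarid2 or Mtf2 guiding it to chromatin. PRC1 ubiquitinates histone H2A through Ring1 or Rnf2 (Ring1B), paired with a Pcgf protein such as Pcgf6. In mouse embryonic stem (ES) cells both complexes sit on CpG-rich promoters, and Jarid2 and Mtf2 are abundant accessory subunits there. The 10 genes Ezh2, Eed, Suz12, Rbbp4, Rbbp7, Jarid2, Mtf2, Ring1, Rnf2 and Pcgf6 were followed by name, out of 12588 genes in the bulk table and 29686 in the single-cell tables, and all 10 were found in both.

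The series holds 11 libraries of mouse ES cells and addresses how soft agarose microgels and plakoglobin (Jup), a catenin of cell junctions, bear on the pluripotent state. Bulk Smart-seq2 libraries, labelled wild-type, were made from about 1000 cells of the line Rex1GFPd2 in 2i/LIF. This is a pair of kinase inhibitors with the cytokine LIF that hold ES cells in the naive state. Of these libraries 3 came from gels and 3 from tissue-culture plastic. Single-cell inDrop libraries, 1 for each condition, came from the wild-type line E14, grown on plastic with serum/LIF, within gels with serum/LIF, or on plastic with 2i/LIF. A further pair came from cells carrying Jup under the constitutive CAG promoter, labelled low (PGLOW) or high (PGHIGH) overexpression, both in serum/LIF on plastic, and is called here the libraries labelled JupLow and JupHigh. Labels do not say whether the bulk triplicates were separate cultures, so p-values measure the spread between these libraries, which may be technical, and do not say whether a Jup line was 1 clone.

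Bulk depth, recovered from the deposited values, differed by group. It was 707718 to 866721 reads in the gel libraries, and 2390575, 2583256 and 637235 in plastic libraries 1, 2 and 3. The single-cell libraries held 112 to 2889 cells with at least 1000 UMIs (unique molecular identifiers, 1 per captured transcript). The bulk level of Jup was 90.9 to 103 normalized counts in gel. On plastic it was 9.56, 9.39 and 30.4, with library 3 apart. In single cells Jup stood at 36.7 CPM (counts scaled to a common library total) in wild-type serum and 46.7 in wild-type 2i, and at 37.9 and 47.8 in the libraries labelled JupLow and JupHigh, so these counts do not bear out the overexpression labels. Whether the tables count the transgene is not given in the sources used here. No cell barcode was shared between libraries. Of 7 ES cell markers all had UMIs in every library but Sox2, which had 0 in wild-type serum. That library stands apart in other ways: Setd1b, a trithorax gene, was at 395 CPM there against 32.0 to 52.5 elsewhere, Kdm2b, a PRC1 subunit, at 22.8 against 77.3 to 106, and 10 endoderm markers summed to 2068 CPM against 263 to 579. Its table may have been counted in another way than the others; how is not given in the sources used here, and 4 of the 6 single-cell comparisons use it as control.

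The RefSeq promoters (GRCm38.p6) of the members that changed in gel are shown because the called genes fall into a pair that rose and a pair that fell. Each line is the 250 bases before the annotated start, on the strand of the gene, with every CpG dinucleotide in capitals. Suz12 lies at chr11:79992856-79993105 on the plus strand, Rbbp4 at chr4:129335371-129335620 on the minus strand, Rbbp7 at chrX:162760122-162760371 on the plus strand and the first Mtf2 start at chr5:108065424-108065673 on the plus strand.
Suz12: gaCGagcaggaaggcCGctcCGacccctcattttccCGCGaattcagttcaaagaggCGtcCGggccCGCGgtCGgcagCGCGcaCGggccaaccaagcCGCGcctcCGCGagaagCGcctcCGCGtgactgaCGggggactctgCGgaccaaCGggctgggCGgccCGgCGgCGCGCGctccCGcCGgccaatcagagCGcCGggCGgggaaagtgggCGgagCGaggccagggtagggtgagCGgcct
Rbbp4: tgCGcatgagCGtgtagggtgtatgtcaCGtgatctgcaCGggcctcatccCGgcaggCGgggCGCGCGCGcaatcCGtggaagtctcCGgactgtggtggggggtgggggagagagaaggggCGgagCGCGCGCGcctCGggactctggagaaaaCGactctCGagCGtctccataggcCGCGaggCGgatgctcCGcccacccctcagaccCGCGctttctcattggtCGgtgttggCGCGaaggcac
Rbbp7: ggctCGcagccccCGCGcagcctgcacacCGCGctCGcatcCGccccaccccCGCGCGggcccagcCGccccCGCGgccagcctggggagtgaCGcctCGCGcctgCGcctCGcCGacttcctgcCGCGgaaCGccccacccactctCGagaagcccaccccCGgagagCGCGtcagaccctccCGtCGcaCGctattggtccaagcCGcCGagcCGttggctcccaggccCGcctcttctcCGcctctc
Mtf2: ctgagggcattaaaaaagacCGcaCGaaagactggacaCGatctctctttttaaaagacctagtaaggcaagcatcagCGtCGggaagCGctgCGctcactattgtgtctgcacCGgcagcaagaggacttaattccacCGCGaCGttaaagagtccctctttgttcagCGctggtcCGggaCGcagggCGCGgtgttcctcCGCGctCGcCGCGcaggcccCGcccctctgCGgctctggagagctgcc
All 4 windows are rich in CpG: 37 for Suz12, 30 for Rbbp4, 34 for Rbbp7 and 23 for Mtf2, against a median of 6 over all windows of that length, of which 27.3% hold at least 15. Those that rose and those that fell are not set apart by this count. An alternative Mtf2 start at chr5:108077915-108078164 holds 2. Windows of the other 6 members hold 12 (Eed) to 30 (Ring1). Of the E2F-like letters TTTGGCGC, TTTCGCGC, TTTCCCGC and TTTGCCGC, searched on both strands, only the Suz12 window holds a match, TTTCCCGC, 219 bases before the start, while 1.86% of all windows hold one. The CCAAT box, searched likewise, is in the Suz12, Rbbp4 and Rbbp7 windows, in those of Ezh2, 1 of the Jarid2 starts and the alternative Mtf2 start, and in 33.9% of all windows.

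Gel against plastic in 2i/LIF, the bulk comparison, asks what soft confinement does to these genes in the naive state. Among the PRC2 genes, Suz12 and Rbbp4 were higher in gel, while Rbbp7, a close relative of Rbbp4, and the accessory subunit Mtf2 were lower. By limma on log2(value + 0.5) with Benjamini-Hochberg adjustment over 7878 genes, 2 of the 9 tested members were higher and 2 lower (adjusted p under 0.05). Over all genes tested 36.9% were called, 18.3% higher and 18.6% lower, so the members' share was near the background. The members' median log2 change was -0.22, and that of all genes tested -0.02.

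**Figure D1:**
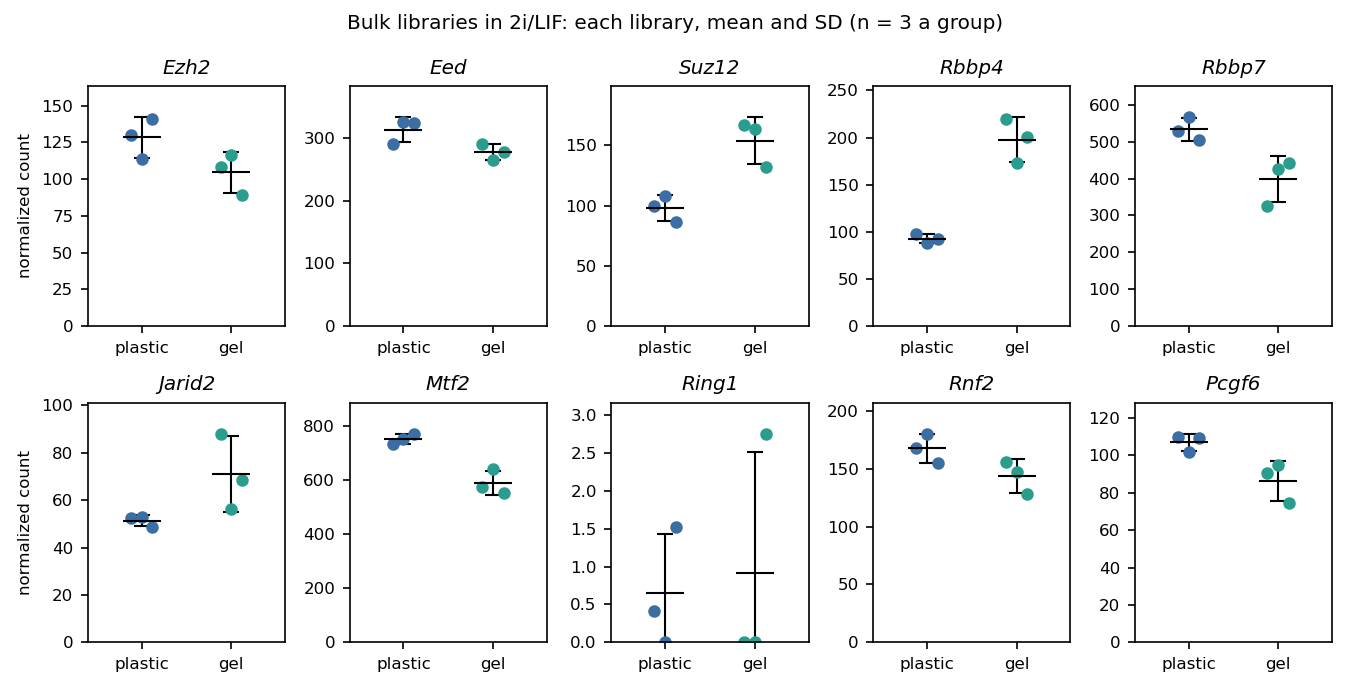
Normalized counts (y axis, from 0, a scale of its own for each gene) of the 10 members in the 3 plastic and 3 gel libraries; points are libraries, long dashes means and bars the SD. The Rbbp4 gel libraries lie between 173 and 220, all above the plastic ones, and the Mtf2 gel libraries between 554 and 640, all below them.

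Rbbp4, the histone-binding subunit that PRC2 shares with several deacetylase complexes, had 220, 173 and 201 normalized counts in the gel libraries and 97.2, 88.0 and 92.6 on plastic. The groups were far apart, and the log2 change was 1.09 ± 0.13 (SE, n = 3 and 3, limma adjusted p = 9.77e-06). Of the 8744 exonic bases of Rbbp4, 1578 lie opposite exons of Sync and Gm26722, and whether the counting used strand is not given in the sources used here. Suz12, which PRC2 needs for its stability, had 167, 163 and 132 in gel and 99.3, 108 and 86.5 on plastic. Again no gel library overlapped the plastic ones, and the log2 change was 0.65 ± 0.14 (SE, limma adjusted p = 0.00157).

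Rbbp7 had 326, 426 and 442 normalized counts in gel and 528, 566 and 506 on plastic. The gel libraries were all lower, with gel library 1 lowest, and the log2 change was -0.43 ± 0.12 (SE, limma adjusted p = 0.00708). Without gel library 1 it was -0.29 and no longer called (limma adjusted p = 0.0519). Mtf2, the Polycomb-like subunit that recognises unmethylated CpG-rich DNA, had 574, 640 and 554 in gel and 733, 752 and 771 on plastic. All gel libraries were below all plastic ones, with a log2 change of -0.35 ± 0.09 (SE, limma adjusted p = 0.00678).

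Jarid2, a subunit that helps place PRC2 at its targets, had 88.0, 56.5 and 68.7 normalized counts in gel and 52.4, 52.8 and 48.6 on plastic. Its groups did not overlap, but gel libraries were spread widely and the log2 change of 0.45 ± 0.18 (SE) did not pass (limma adjusted p = 0.0569). On recovered reads edgeR called it (log2 change 0.47, quasi-likelihood adjusted p = 0.0291) and DESeq2 did not (0.48, adjusted p = 0.0996). Without gel library 1 the log2 change was 0.28 (limma adjusted p = 0.255). Eed, the subunit that binds the methylated mark, had 290, 265 and 278 in gel and 291, 325 and 325 on plastic, a log2 change of -0.17 that did not pass (limma adjusted p = 0.20). Ezh2, the methyltransferase, had 108, 117 and 89.3 in gel and 130, 114 and 141 on plastic. These overlap, and the log2 change of -0.30 did not pass (limma adjusted p = 0.111).

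Of the PRC1 members, Rnf2, the main H2A ubiquitin ligase of ES cells, had 156, 147 and 128 normalized counts in gel and 167, 180 and 155 on plastic, which overlap (log2 change -0.22, limma adjusted p = 0.173). Pcgf6, which marks a variant PRC1 in ES cells, had 90.3, 94.5 and 74.2 in gel and 110, 102 and 109 on plastic. Its groups did not overlap, yet the log2 change of -0.31 did not pass (limma adjusted p = 0.0914). Ring1, the other ligase, was at 0 to 2.75 in all 6 libraries and was too low to test. In all, 7 members had groups that did not overlap, 3 higher in gel and 4 lower, while 49.5% of all tested genes did so, 24.4% higher and 25.0% lower.

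Per kilobase of annotated exon, the mean bulk level over the 6 libraries was highest for Rbbp7 (160 normalized counts per kilobase), followed by Mtf2 (118) and Eed (77.2). Rnf2 (37.7), Suz12 (25.5), Pcgf6 (19.2), Ezh2 (17.5) and Rbbp4 (16.6) formed a middle range. Jarid2 (6.30) and Ring1 (0.241) were lowest. Exon length is the union of all annotated transcripts, so this order rests on that length. Within the middle range the order also differs by group. Rbbp4 was at 22.6 in gel and 10.6 on plastic, and Suz12 at 31.2 and 19.8. Pcgf6 was at 17.2 in gel and 21.3 on plastic, and Ezh2 at 15.7 and 19.2.

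For the other genes of the pathway the share called is read against the 36.9% of all tested genes. Of 17 further PRC1 genes tested, 6 were higher in gel and 1 lower. In either direction that is 41.2%, near that background. By direction the calls lean upward, while all tested genes split into 18.3% higher and 18.6% lower. The list's median log2 change was 0.43, against -0.02 for all tested genes. Cbx7, the chromodomain reader of canonical PRC1 in ES cells, had a log2 change of 2.15 ± 0.26 (SE, limma adjusted p = 1.12e-05). Rybp, a subunit of variant PRC1, had 1.28 ± 0.18 (limma adjusted p = 4.98e-05), and the deacetylase Hdac2 -0.70 ± 0.10 (limma adjusted p = 6.05e-05). Neither of the 2 further PRC2 genes tested, Ezh1 and Aebp2, passed. Of 7 enzymes that remove Polycomb marks or act with those that do, 3 were higher and 1 lower (57.1%). Of 13 trithorax genes, which oppose Polycomb silencing, 6 were higher and 1 lower (53.8%). The median log2 changes of these lists were 0.49 and 0.70, each on few genes. Of 10 S phase markers 8 were lower in gel (against 18.6% of all genes), among them Mcm6 with a log2 change of -0.82, and of 8 G2 and M phase markers 3. Of 7 ES cell markers 3 were higher and 3 lower (85.7%), of 2 endoderm markers tested 1 was higher, no fibroblast marker is in the table, and of 56 Polycomb targets 9 are in it and 0 were high enough to test. Rbbp4 and the other members are read in cells that differ in these markers too, and the part of the markers in the members' changes was not tested.

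In single cells each condition had 1 library, so values carry 95% Poisson intervals that cover counting error only, no test was possible, and a change of 1.5-fold serves as the mark for genes of at least 20 CPM in the higher library. Ring1 stayed below that level, leaving 9 members. CPM here sums the UMIs of all cells of a library, and in such sums fewer cells of a type and less RNA per cell cannot be told apart; the same holds for the bulk values.

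**Figure D2:**
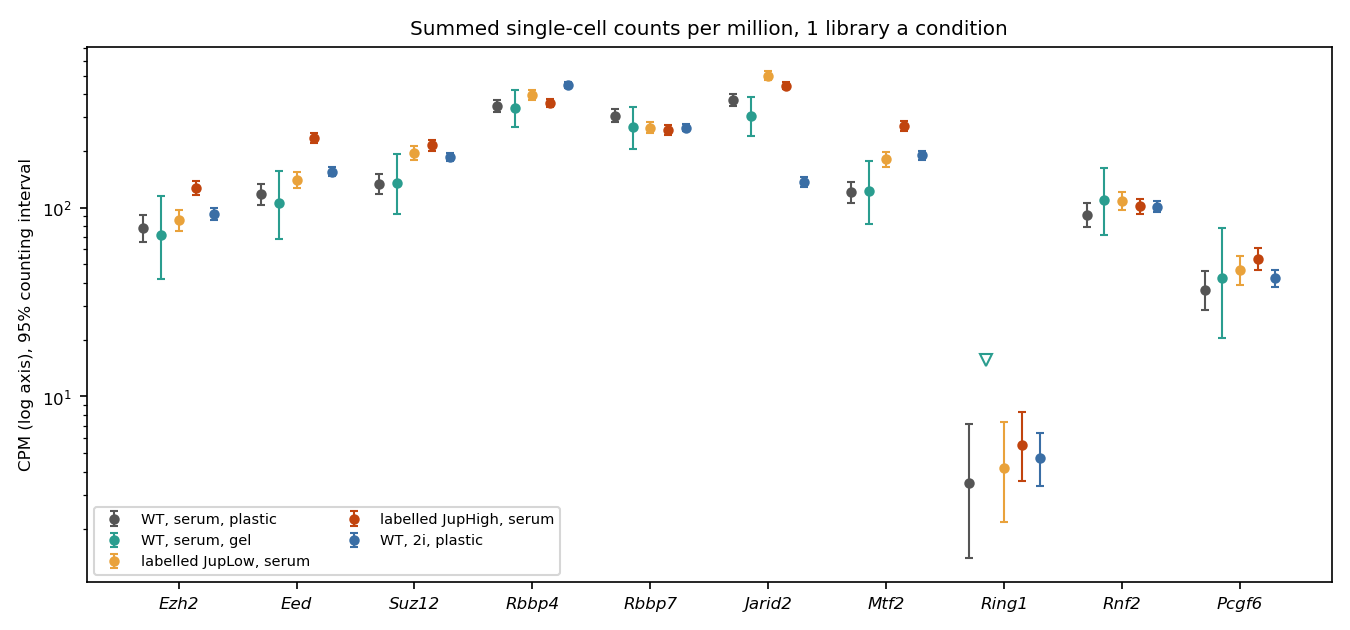
CPM (y axis, log) of the 10 members in the 5 single-cell libraries, with 95% counting intervals; the open triangle is the upper limit for Ring1 in gel, where no UMI was seen. Jarid2 stands lowest in 2i, at 137, and Eed, Mtf2 and Ezh2 stand highest in the library labelled JupHigh.

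Jarid2 had the widest range of the 9. It stood at 500 CPM in the library labelled JupLow (interval 474 to 526), 443 in that labelled JupHigh (423 to 463), 370 in wild-type serum (344 to 398), 305 in gel (239 to 384) and 137 in 2i (129 to 145). Serum and gel intervals overlap, while 2i lies far below the rest. Mtf2 ran in another order: 270 CPM labelled JupHigh (254.95 to 286), 189 in 2i (180 to 199), 180 labelled JupLow (165 to 196), 123 in gel (82.2 to 176) and 121 in wild-type serum (106 to 137). Here 2i and JupLow do not differ beyond counting error, nor do gel and serum.

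Eed stood at 234 CPM labelled JupHigh (220 to 249), 155 in 2i (147 to 164), 140 labelled JupLow (127 to 155), 117 in wild-type serum (103 to 133) and 106 in gel (68.5 to 156). Only the library labelled JupHigh lies outside the intervals of all others. Ezh2 followed with 127 CPM labelled JupHigh (116 to 138), 92.3 in 2i (85.9 to 99.1), 85.5 labelled JupLow (75.1 to 96.8), 77.8 in wild-type serum (66.1 to 91.0) and 72.0 in gel (41.9 to 115). Suz12 stood at 214 labelled JupHigh (200 to 228), 194 labelled JupLow (178 to 211), 185 in 2i (176 to 195), 135 in gel (92.7 to 191) and 133 in wild-type serum (117 to 150).

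The histone chaperones moved little. Rbbp4 stood at 445 CPM in 2i (431 to 460), 394 labelled JupLow (371 to 417), 357 labelled JupHigh (340 to 376), 346 in wild-type serum (321 to 373) and 339 in gel (269 to 422). Rbbp7 was at 307 in wild-type serum (284 to 332) and between 258 and 267 in the other 4 libraries. Rnf2 kept within 91.7 to 110 CPM, with all 5 intervals overlapping. Pcgf6 ran from 36.7 in wild-type serum (28.8 to 46.0) to 53.6 labelled JupHigh (46.9 to 61.0), and these intervals do not overlap. Ring1 had 3.47 to 5.57 CPM in 4 libraries and 0 UMIs in gel, where 3 counts would be 12.7 CPM.

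The 2i library against wild-type serum, both on plastic, compares the naive with the metastable medium. Jarid2 was lower in 2i and Mtf2 higher, each past 1.5-fold: 1 higher and 1 lower of 9 members, while 43.4% of 7693 genes passed, 19.8% higher and 23.6% lower. The log2 ratio of Jarid2 was -1.44 (-1.57 to -1.30), 2.71-fold lower in 2i, and that of Mtf2 0.64 (0.45 to 0.84). Suz12 at 0.48, Eed at 0.40 and Rbbp4 at 0.36 were higher beyond counting error but under 1.5-fold, and Rbbp7 was at -0.21 (-0.34 to -0.08). Scaling by TMM, a trimmed mean of gene ratios, moves every ratio of this comparison up by 0.25 and leaves Jarid2 at -1.19. Without TMM the median log2 ratio of the 7693 genes was already -0.02, so the shift does not centre them. Rbbp7 ran from -0.43 to 0.04 over the alternatives, with 0.04 under TMM. With TMM 4 members pass upward, but all genes shift alike and the all-gene shares above are without TMM. Mtf2 was at 0.54, under 1.5-fold, without the cells in which endoderm markers made up at least 0.2% of UMIs (92 of 725 in wild-type serum, 7 of 2889 in 2i), and Jarid2 at -1.57. Markers of state moved as well. The 7 ES cell markers summed to 2283 CPM in 2i and 1595 in wild-type serum, with 3 higher and 2 lower past 1.5-fold. The 3 higher include Sox2, which had 0 UMIs in wild-type serum. Nanog, a naive pluripotency factor, stood at 539 CPM in 2i and 82.8 in wild-type serum. The 6 fibroblast markers summed to 2.90 and 39.1, with Lum at 0 UMIs in both. The part of these markers in the members' ratios was not tested.

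**Figure D3:**
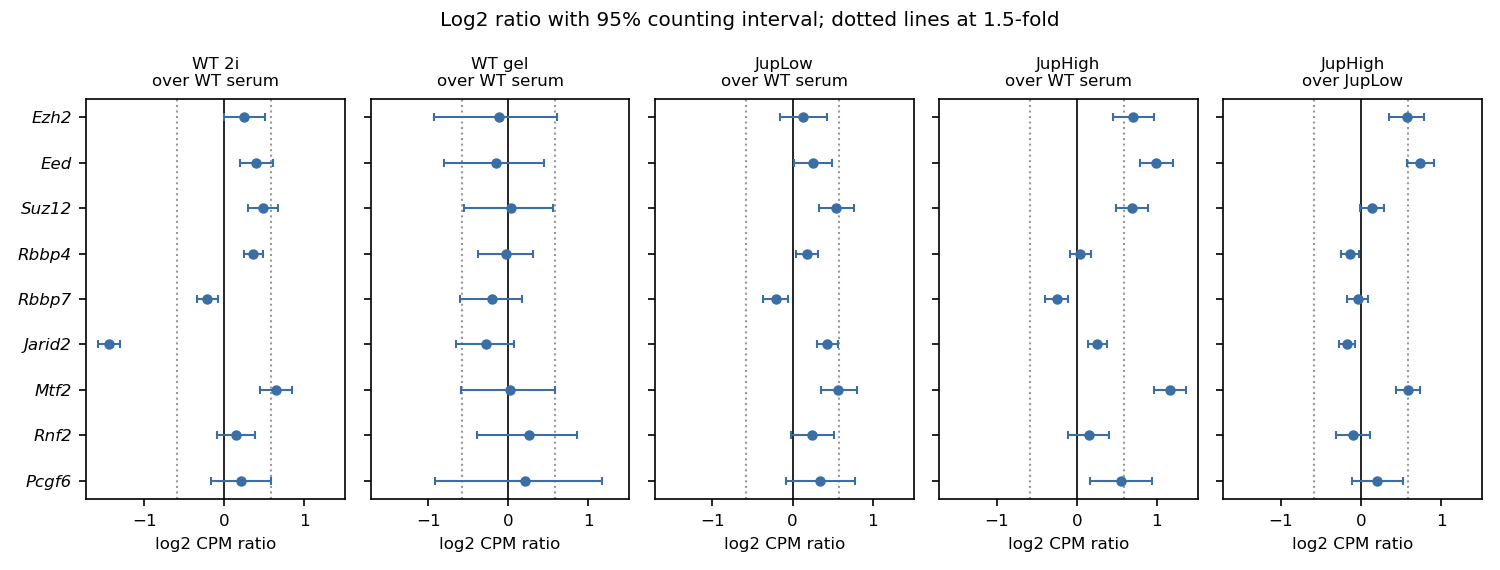
Log2 CPM ratios (x axis) of 9 members in 5 comparisons of single-cell libraries, with 95% counting intervals; the solid line is no difference and dotted lines mark 1.5-fold. Jarid2 in 2i lies farthest left, at -1.44, and Mtf2 labelled JupHigh over wild-type serum farthest right, at 1.16.

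Gel against plastic in serum/LIF gave no member past 1.5-fold, against 41.0% of 7662 genes, with 17.6% higher and 23.3% lower. In gel 3 counts are 12.7 CPM, so genes near the 20 CPM mark rest on few UMIs and can pass by counting error. The 9 members had 10 to 80 UMIs in gel, so that share is no like measure for them. The deposited gel table ends in a line that is cut off, so it may be incomplete. That barcode was left out, the rest holds 112 cells, and its intervals are wide: Rbbp4 had a log2 ratio of -0.03 (-0.38 to 0.30), Suz12 0.03 (-0.55 to 0.56), Mtf2 0.02 (-0.59 to 0.58), Rbbp7 -0.20 (-0.60 to 0.17) and Jarid2 -0.28 (-0.65 to 0.07). The Rbbp4 interval ends below the 1.09 of the bulk comparison, which used another line, medium and chemistry. For the other 4 the bulk changes of Rbbp7 and Mtf2 lie within the interval. Those of Suz12 (0.65 ± 0.14, SE) and Jarid2 (0.45 ± 0.18, SE, not called in bulk) lie above it. The intervals cover counting error of 1 library a condition, and the placing leaves the bulk SE aside. It therefore cannot settle whether the bulk and single-cell changes differ. Whether gel acts otherwise in the 2 media was not tested. ES cell markers summed to 2168 CPM in gel and 1595 in wild-type serum, with 3 of 7 higher and 0 lower. The 3 include Sox2, which had 0 UMIs in wild-type serum.

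The library labelled JupHigh against that labelled JupLow, which share medium and surface, showed Eed and Mtf2 higher past 1.5-fold, with none of the 9 lower, while 25.5% of 6953 genes passed, 7.33% higher and 18.2% lower. Eed had a log2 ratio of 0.74 (0.57 to 0.91) and Mtf2 0.59 (0.44 to 0.74), just inside the mark. Ezh2 at 0.57 (0.35 to 0.79) was just outside it. Jarid2 was at -0.18 (-0.28 to -0.08), but at 0.10 with barcodes of at least 500 UMIs and at 0.23 with every barcode, so its direction turns with the cell filter. Barcodes under 500 UMIs had 234 CPM of Jarid2 labelled JupLow and 297 labelled JupHigh. Suz12 (0.14), Rbbp7 (-0.04), Rnf2 (-0.10) and Pcgf6 (0.20) had intervals that include 0. Rbbp4 was at -0.14 (-0.25 to -0.03). Suz12 was at 0.35 with barcodes of at least 500 UMIs and at 0.50 with every barcode; barcodes under 500 UMIs had 105 CPM of it labelled JupLow and 205 labelled JupHigh. The members past 1.5-fold depend on the setting, and the all-gene shares above are those of the main setting. Without the endoderm-marker cells Mtf2 was at 0.56, which leaves Eed alone. TMM moves every ratio up by 0.11 and puts Ezh2 at 0.68, so that 3 members pass, as they do with the total without mitochondrial and ribosomal protein genes (Ezh2 0.63) or with a mean over cells (0.65). The ES cell markers summed to 2864 CPM labelled JupHigh and 1958 labelled JupLow, with 3 of 7 higher and 1 lower: Nanog stood at 449.8 and 92.4 and Zfp42 (Rex1), another naive marker, at 739 and 239. The fibroblast markers summed to 4.87 and 25.4, with Lum at 0 UMIs in both, Col3a1 at 0 labelled JupHigh and Dcn at 0 labelled JupLow. The part of these markers in the members' ratios was not tested.

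Against wild-type serum, which both Jup libraries share as control, 4 members were higher past 1.5-fold in the library labelled JupHigh (of 7371 genes 39.7% passed, 13.4% higher and 26.3% lower) and 0 in that labelled JupLow (of 7377 genes 23.8% passed, 10.6% higher and 13.2% lower). The log2 ratio of Mtf2 was 1.16 (0.96 to 1.37) labelled JupHigh and 0.57 (0.35 to 0.80) labelled JupLow. Eed had 1.00 (0.79 to 1.21) and 0.26 (0.02 to 0.49), and Ezh2 0.71 (0.45 to 0.97) and 0.14 (-0.16 to 0.43). Suz12 had 0.69 (0.49 to 0.89) and 0.55 (0.34 to 0.76), the latter at 0.27 with barcodes of at least 500 UMIs and at 0.11 with every barcode. Jarid2 was at 0.26 labelled JupHigh and 0.43 labelled JupLow. Over the alternative settings it ran from 0.13 to 0.54 labelled JupHigh and from 0.21 to 0.60 labelled JupLow. TMM raises these ratios by 0.28 and 0.17, and 3 members then pass in the library labelled JupLow. The all-gene shares above are those of the main setting, without TMM. Rbbp7 was at -0.25 and -0.21, and at 0.03 and -0.04 under TMM. Pcgf6 was at 0.55 (0.16 to 0.95) labelled JupHigh, under 1.5-fold, and at 0.34 (-0.08 to 0.77) labelled JupLow. The endoderm markers summed to 302 CPM labelled JupHigh, 579 labelled JupLow and 2068 in wild-type serum, and the ES cell markers to 2864, 1958 and 1595. The last of these sums holds 0 UMIs of Sox2. Without endoderm-marker cells 4 and 0 members passed. For the library labelled JupHigh 3 passed with barcodes of at least 500 UMIs (Ezh2 at 0.56) or every barcode (0.50), and 5 passed, Pcgf6 among them, with TMM (0.83), with the total without mitochondrial and ribosomal protein genes (0.60) or with a mean over cells (0.625).

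The library labelled JupHigh was also set beside wild-type 2i, from which it differs in medium and, by its label, in the transgene (Jup at 47.8 and 46.7 CPM). Jarid2 (log2 ratio 1.70, 1.59 to 1.80) and Eed (0.60, 0.48 to 0.72) were higher past 1.5-fold and no member lower, against 28.2% of 6864 genes, 8.48% higher and 19.7% lower. Mtf2 was at 0.52 and Ezh2 at 0.46; with barcodes of at least 500 UMIs Mtf2 was at 0.60 and 3 members passed, as they did with every barcode (0.64) or a mean over cells (0.59). ES cell markers summed to 2864 and 2283 CPM, with 4 of 7 higher and 0 lower.

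Among other PRC2 and PRC1 genes, Epop, an elongin-binding subunit of the Mtf2-type PRC2, stood at 154 CPM labelled JupHigh, 49.3 labelled JupLow, 75.1 in 2i and 61.4 in wild-type serum. It had a log2 ratio of 1.64 (1.38 to 1.91) for JupHigh over JupLow, while Aebp2, a subunit of the Jarid2-type PRC2, had -0.58 (-0.83 to -0.34). Phc1, a canonical PRC1 subunit, stood at 300 CPM labelled JupHigh and 117 in 2i, which differ in medium too. For JupHigh over JupLow the largest log2 ratios of further PRC1 genes were downward: Yaf2 at -1.66, Phc2 at -1.35 and Pcgf5 at -0.95. In the JupHigh over JupLow comparison 1 of 20 further PRC1 genes was higher and 4 lower, and in 2i over wild-type serum 5 of 19 were higher and 4 lower. All-gene shares past 1.5-fold were 25.5% and 43.4%, so neither count stands apart from its background. The latter count includes Kdm2b, whose level in wild-type serum stands apart. Of 15 trithorax genes 1 was higher and 0 lower for JupHigh over JupLow, and 4 and 1 in 2i over wild-type serum. The 1 lower there is Setd1b, whose level in wild-type serum also stands apart. None of 6 opposing enzymes passed in either. Summed over 56 listed Polycomb target genes, mostly silent developmental regulators, of which 53 are in the tables, the level was 392 CPM in wild-type serum, 355 labelled JupLow, 288 in gel, 242 labelled JupHigh and 131 in 2i, with 14 to 31 of them at 0 UMIs. Of the 56, 5 are also on the endoderm list and made up 158 CPM of the sum in wild-type serum. Without them the order changes: 344 labelled JupLow, 262 in gel, 235 in wild-type serum, 229 labelled JupHigh and 128 in 2i. A few genes carry these sums and go opposite ways: Cdkn1c, a cell cycle inhibitor, stood at 94.8 CPM labelled JupLow and 9.05 labelled JupHigh and Otx2 at 53.9 and 13.2, but Bmp4, a signalling ligand, at 52.8 and 93.3 and Foxd3 at 38.6 and 66.3. The sum is thus no common level of the 56.

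In cells thinned to 1000 UMIs, the share of cells with a UMI ran in the order of the CPM for Jarid2, but not for every member. For Jarid2 the libraries labelled JupLow and JupHigh were level within counting error. Jarid2 was seen in 31.7% of cells labelled JupLow (29.0% to 34.4%, exact binomial), 31.6% labelled JupHigh, 25.5% in wild-type serum, 21.4% in gel and 10.8% in 2i. Without thinning these shares were 52.4%, 51.6%, 46.8%, 35.7% and 29.2%. Thinned to 2000 UMIs, in the cells that deep, the order of the Jup libraries turned. Jarid2 was then seen in 53.3% of cells labelled JupLow (49.4% to 57.1%) and 59.6% labelled JupHigh (56.4% to 62.7%). Mtf2 was seen in 22.7% of cells labelled JupHigh, 16.9% in 2i, 15% labelled JupLow, 11.3% in wild-type serum and 9.82% in gel, with the last 2 in the reverse order of their CPM. Ring1 was seen in at most 0.588% of cells, in 2i, and in 0 of 112 gel cells, which allows a share with a UMI of up to 2.68% (3 counts of the cells). At least 1 of the 10 genes was seen in 70.5% (gel) to 82.3% (labelled JupHigh) of cells.

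Within libraries, Rbbp4 and some other members were higher in cells with cell cycle marker UMIs. Cells with at least 1 UMI of the 10 S phase markers had 419 CPM of Rbbp4 in 2i (395 to 445), against 218 (168 to 278) in cells with none. The same values were 383 against 156 labelled JupHigh, 405 against 210 labelled JupLow and 367 against 213 in wild-type serum. In these 4 libraries the intervals of the 2 sets do not overlap, and gel had 13 cells without a marker UMI, too few to place. Other members had intervals apart in fewer of these libraries. Labelled JupHigh, they were Ezh2 (134 against 58.4), Rbbp7 (277 against 156) and Rnf2 (101 against 46.7). In 2i they were Rbbp7 (289 against 201) and Jarid2 (119 against 68.0). By G2 and M phase markers Rbbp4 was apart in 2i (417 against 329) and labelled JupHigh (386 against 241), where Jarid2 (436 against 303) and Rbbp7 (280 against 195) were too. So was Ezh2 in 2i (92.9 against 54.4). Summed, the S phase markers stood at 3240 CPM in 2i, 2901 labelled JupHigh, 2745 labelled JupLow, 2553 in gel and 2187 in wild-type serum. Among them Mcm7 stood at 187 CPM in wild-type serum, which stands apart in other genes too, against 385 to 479 elsewhere. The part of these markers in the Rbbp4 levels was not tested. Cells of 1 library are no replicates, so these are descriptions.

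**Figure D4:**
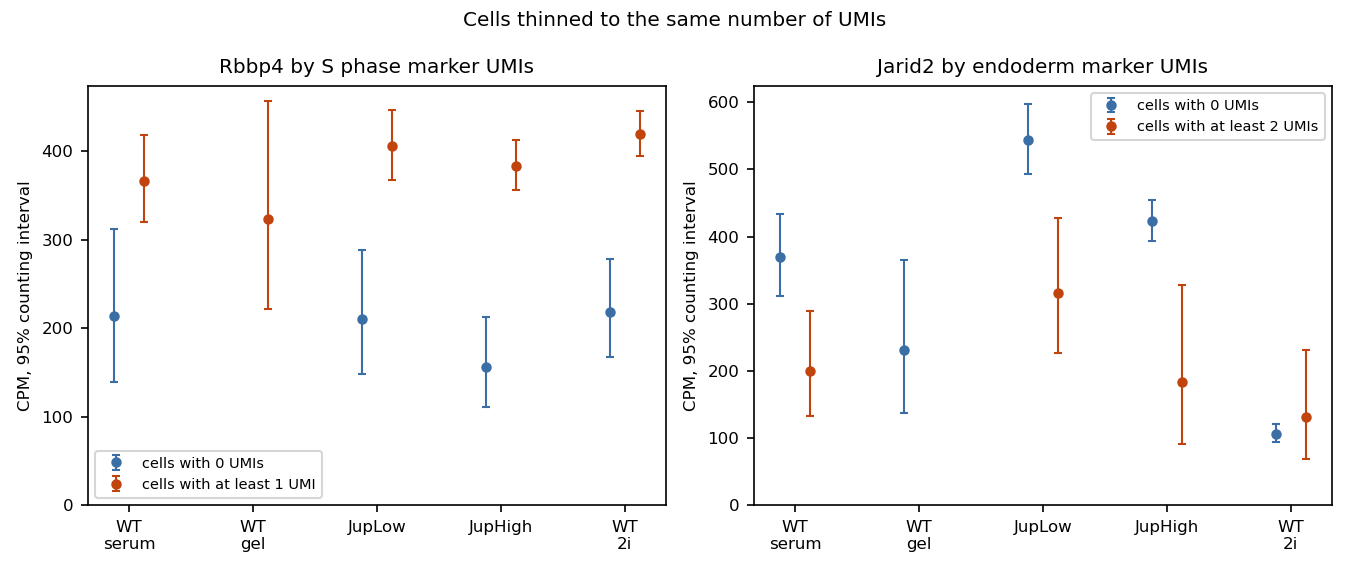
CPM (y axis, from 0) of Rbbp4 in cells with or without S phase marker UMIs (left) and of Jarid2 in cells with 0 or at least 2 endoderm marker UMIs (right), by library, with 95% counting intervals after thinning to 1000 UMIs; gel sets of 12 and 13 cells are not drawn. Rbbp4 was higher in the S phase set of all 4 libraries with both sets, and Jarid2 lower in the endoderm set of all but 2i.

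Jarid2 differed along the endoderm markers. In wild-type serum, cells with at least 2 UMIs of endoderm markers had 200 CPM of Jarid2 (133 to 289) and those with none 369 (312 to 434). The values were 315 and 544 labelled JupLow and 183 and 423 labelled JupHigh, all 3 with intervals apart, while 2i had 132 and 106 with intervals that overlap. The 183 labelled JupHigh rests on 11 UMIs in 60 cells. The marker UMIs differ in kind between libraries. The 5 endoderm markers that are also listed Polycomb targets summed to 158 CPM in wild-type serum. They summed to 11.1 labelled JupLow, 13.5 labelled JupHigh and 2.90 in 2i, where other markers of the list carry most UMIs. With a mark of at least 1 UMI, as for S phase, the library labelled JupLow stayed apart in that direction (370 against 544), while intervals overlapped in wild-type serum (309 against 369) and labelled JupHigh (355 against 423). Suz12 in wild-type serum was at 100 (54.7 to 168) against 140 (105 to 181), not separable at this depth.

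By the size of the difference between their log2 profiles over the 5 libraries, each centred on its mean, 1107 genes of at least 100 CPM were ranked against Ezh2 and Rnf2. Nearest to Ezh2 were the host transcript Snhg1 (root mean square difference 0.06), the telomere protein gene Terf1 (0.10) and the chaperone gene Hsph1 (0.11). Nearest to Rnf2, which hardly varied, were Psmd7 (0.02), Polr1d (0.04) and Tsc22d1 (0.04).

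The members' own sequences limit some values. Rbbp4 and Rbbp7, and likewise Ring1 and Rnf2, share no word of 31 bases between their transcripts, so reads of such length are not split between them. Rbbp7 shares 11.6% of its words with Gm6382 and Rbbp4 1.86% with Gm4800, and reads there are uncertain. Within the last 1000 exonic bases, near where inDrop reads fall, Rbbp4 overlaps genes of the opposite strand over 322 bases, Rbbp7 over 174 and Rnf2 over 158, and the other members over 0.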

How the data were processed

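Bulk values are a signal deposited by the authors as normalized counts, 1 column per library. Every value was a whole multiple of what 1 read is worth within 0.01 of a read (100% of values), so whole reads were recovered. Single-cell tables hold UMI counts per barcode and gene, deposited by the authors. Per the submitters' processing notes STAR, featureCounts, DESeq2, Scanpy and FastQC and the builds mm10 and GRCm38 were used; versions and settings are not given in the sources used here. No column of another sample was found.

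Bulk libraries were tested with limma 3.58.1 (trend) on log2(value + 0.5) for genes passing the edgeR 4.0.16 expression filter, 7878 of 12588. DESeq2 1.42.0, edgeR, TMM, other pseudocounts and filters, thinning, a replicate block and left-out libraries were alternatives. Barcodes with at least 1000 UMIs were kept, and those starting and ending in 8 G were dropped (0 to 6 per library). No doublet caller was run; leaving out barcodes above 3 times the median depth was an alternative. Ratios carry exact binomial intervals at 95%.

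Same-numbered gel and plastic libraries correlated at -0.05, 0.02 and 0.02 in their deviations from group means. These values show no pairing by number, but with 3 libraries a group they cannot settle it. The labels of plastic library 2 give it number 2 in the title and 3 in the description; the title was used, and the correlations and the block rest on it. Positions come from GENCODE M21 (GRCm38), and promoters from RefSeq, with all 10 members matched. The members and the 10 lists of 152 further genes were chosen with earlier results of these data known. Named list genes were at most the 3 of smallest adjusted p in bulk or largest ratio in a single-cell comparison; Sox2, Sync, Cdkn1c, Otx2, Bmp4, Foxd3, the fibroblast markers at 0 and the genes that share sequence were named after their values were seen.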

Additional observations from a re-analysis of the deposited data

How the results depend on the processing

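Depth limits the gel single-cell values most (112 cells), and bulk plastic library 3 is the shallowest of that comparison. Of 135 alternative bulk fold changes of the 9 members, 131 kept their direction and side of the threshold, 1 was lost (Rbbp7 without gel library 1) and 3 were gained, all of Jarid2: edgeR, thinned reads (limma adjusted p = 0.0343) and without gel library 2 (0.0194). Without gel library 1 the Jarid2 change fell to 0.28 (limma adjusted p = 0.255), and DESeq2 did not call it. None reversed. With limma 2906 genes were called. Requiring a log2 change of at least 1 gave 727, with 1 member higher and 0 lower, since only Rbbp4 passes that size. Leaving out 1 library gave 2361 to 2833 genes, 2 to 3 members higher and 1 to 2 lower. With a replicate block 2988 genes were called and the members' calls were the same, although no pairing by number was seen.

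Of 472 alternative single-cell ratios 430 stayed within the counting interval and 42 moved. Counts of members past 1.5-fold upward differed in 19 of 48 cases, 8 of them by over 1.5 times, and downward counts in 0 of 48. All-gene shares are given for the main setting only, so member counts at other settings have no background beside them. For 2i over wild-type serum the 1 became 0 with every deposited barcode, 0 without endoderm-marker cells (an alternative chosen after seeing the data) and 4 with TMM. For JupHigh over JupLow the 2 became 1 with at least 2000 UMIs per cell and 1 without endoderm-marker cells. For JupLow over wild-type serum the 0 became 1 with at least 2000 UMIs and 3 with TMM. For gel over serum the 0 became 1 with at least 2000 UMIs. In 2i 1 barcode had under 500 UMIs and in wild-type serum 5905 barcodes had, so lower cell filters add shallow barcodes to the serum side of that comparison. The cause was not tested.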
